A study of Mus musculus with 16 samples.

Results

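Mitochondria make most of the ATP of an aerobic cell by passing electrons along a chain of protein complexes to oxygen, and most of the proteins of that chain are encoded in the nucleus. The genes described here encode nuclear subunits of complex I, complex III and complex IV in mouse induced pluripotent stem cells (iPSCs). They were chosen by name: genes on chromosomes 1 to 19 called Nduf followed by a, b, c, s or v and a number (complex I), Uqcr (complex III), or Cox and a number from 4 to 8 followed by a, b or c (complex IV), together with Cox4i2. The methylation table holds 67 such genes out of 55471, and the histone table holds 59 out of 43984. Of those 67 genes, 40 belong to complex I by name, 10 to complex III and 17 to complex IV. By use, 51 are ubiquitous subunits, 5 are tissue-restricted isoforms (Cox4i2, Cox6a2, Cox6b2, Cox7a1 and Cox8b), 3 are other paralogs (Cox7b2, Cox8c and Ndufa4l2) and 8 are copies that occur in the methylation table only. Of these copies, 7 are processed pseudogenes in the GENCODE M21 annotation, and Ndufb1-ps is listed as a non-coding RNA at a bidirectional promoter. Ndufa4 is counted under complex I by its name, although its protein is now placed in complex IV. A further 3 genes that match the names lie outside chromosomes 1 to 19 and were not counted.

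Complex I takes electrons from NADH, complex III passes them from ubiquinol to cytochrome c, and complex IV hands them to oxygen. Mitochondrial DNA encodes a few of the subunits, so the nuclear ones have to be made in step with them. For several complex IV subunits the genome holds a ubiquitous isoform and one that is used in particular tissues. Cox6a2, Cox7a1 and Cox8b are known from heart and skeletal muscle, Cox4i2 from lung and from cells short of oxygen, and Cox6b2, Cox7b2 and Cox8c from testis. Pluripotent cells rely largely on glycolysis but keep an active respiratory chain.

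The lines came from mice that carried SLC34a1-GCE (Cre and GFP under the promoter of Slc34a1, a phosphate transporter of the proximal tubule), the reporter tdTomato, the doxycycline-controlled activator rtTAROSA (neo-in) and OKMS-250, an inducible cassette of Sox2, Oct4, c-Myc and Klf4. The mice were 8 to 10 weeks old at collection and had been given tamoxifen food for 2 weeks from 6 weeks of age. Lines PTC11 and PTC12 were made from sorted proximal tubule cells (PTC), in which the Slc34a1 promoter drove Cre, and lines TTF1 and TTF4 from tail tip fibroblasts (TTF), which needed Cre from an episomal plasmid. All 4 lines were reprogrammed with doxycycline and LIF, are independent of doxycycline, and are each 1 clone. The paper's methods mention 2 animal replicates for methylation, but it is not given which line came from which mouse. The p values therefore measure only the spread between these 4 lines.

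H3K4me3, a mark of active gene starts, and H3K36me3, a mark left by elongating RNA polymerase, were measured by ChIP-seq, and CpG methylation around the transcription start site (TSS) by nanopore sequencing. In the deposited data each line has 1 library for each of these assays, although the paper states that ChIP was run in duplicate. The histone values are RPKM, read densities scaled to length and library size, in called peaks after subtraction of the input, and the tables give no value where no peak was kept at a gene. The methylation values are fractions of methylated CpGs averaged within 1 kb of the TSS. The paper states a read number for the ChIP-seq samples but no coverage for the nanopore libraries. The depth behind each value is unknown because neither table gives counts or coverage. Levels differed between the lines at all genes in a way that crosses the cell of origin. At the 13709 genes with 4 H3K4me3 values the median ran from 3.72 RPKM in TTF4 to 5.72 RPKM in TTF1, and at the 17039 genes with 4 H3K36me3 values from 1.21 RPKM in TTF1 to 4.07 RPKM in TTF4. The median methylation over 50657 genes ran from 0.370 in TTF1 to 0.769 in TTF4. As a check of cell type, 7 of 10 pluripotency markers had H3K4me3 in all 4 lines, against 2 of 8 proximal tubule markers, 1 of 9 fibroblast markers and 0 of 6 muscle markers. H3K36me3 did not separate these lists, with a value in all 4 lines at 6 of 10, 5 of 8, 5 of 9 and 4 of 6 of them in the same order. The 3 pluripotency markers without an H3K4me3 value in every line were Dppa5a, Esrrb and Zfp42, and Esrrb had none in any line. Slc34a1 had no H3K4me3 value in any line. The lines were kept on mouse embryonic fibroblast feeders, and in bulk samples a middling methylation from a mix of cells cannot be told apart from one of alleles within a cell.

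The ubiquitous subunits carried H3K4me3 in every line without exception. All 51 had a value in all 4 lines, and 52 of the 59 genes in the table did, or 88.1%, against 31.2% of all genes. The other gene with 4 values was Cox6b2. In PTC11 the ubiquitous subunits ranged from 3.10 to 6.23 RPKM with a median of 4.30, and in PTC12 from 3.34 to 8.35 with a median of 5.49. In TTF1 they ranged from 3.76 to 9.25 RPKM with a median of 6.04, and in TTF4 from 2.98 to 6.34 with a median of 4.03. The medians of all genes with 4 values, 3.73, 5.31, 5.72 and 3.72 RPKM in the same order, lay below them in each line. Of the 52 genes with 4 values, 40 were highest in TTF1 and 10 in PTC12, and 29 were lowest in TTF4 and 17 in PTC11. Over all genes TTF1 was highest at 63.1% and PTC12 at 31.6%, and TTF4 was lowest at 47.0% and PTC11 at 48.0%.

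**Figure D1:**
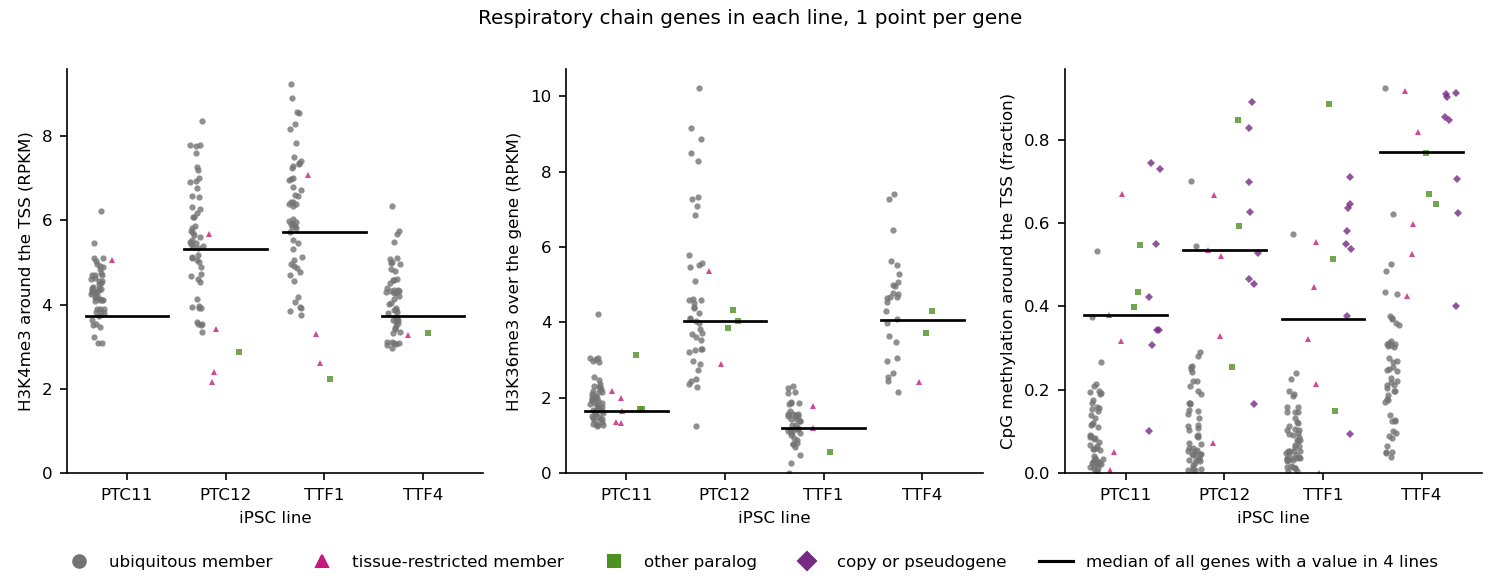
Each point is 1 respiratory chain gene in 1 line, with H3K4me3 (left) and H3K36me3 (middle) in RPKM and CpG methylation as a fraction (right). Grey circles are ubiquitous subunits, triangles tissue-restricted isoforms, squares other paralogs and diamonds copies, and the black bar is the median of all genes with a value in 4 lines. The ubiquitous subunits sit above that bar in median H3K4me3 and far below it in methylation, and TTF4 is the line with the highest methylation.

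The core subunits of complex I that the nucleus encodes hold its flavin and iron-sulfur clusters and carry the electrons. The 3 subunits of the NADH-oxidizing module that are core are Ndufv1, Ndufv2 and Ndufs1. Ndufv1, which binds flavin and NADH, had 4.34 RPKM of H3K4me3 in PTC11 and 4.89 in PTC12, and 4.07 in TTF1 and 4.58 in TTF4. Ndufv2 had 4.13, 3.54, 6.04 and 3.87 RPKM in the same order of lines, and Ndufs1 had 4.63, 6.07, 6.39 and 4.30. Ndufv1 was the steadiest of the 3, and Ndufv2 was the only one with its lowest value in PTC12. Of the core subunits nearer the membrane, Ndufs3 had 4.56, 6.59, 6.96 and 5.12 RPKM. Ndufs7 had 4.85, 5.36, 6.40 and 5.75 RPKM and Ndufs8 had 3.82, 6.93, 4.70 and 3.66. The TTF lines lay above both PTC lines at Ndufs7 and overlapped them at the other core subunits named here.

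The accessory subunits surround the core and serve its assembly and stability. In complex I their H3K4me3 ran from 2.98 to 8.90 RPKM, against 3.54 to 6.96 at the core. The core is only 7 of the 34 ubiquitous complex I subunits, and a range widens with the number of genes. In complex I the highest mean over the lines was that of Ndufb5, at 7.00 ± 1.67 RPKM (SD, n = 4 lines), with 5.45 RPKM in PTC11 and 8.35 in PTC12, and 8.54 in TTF1 and 5.67 in TTF4. The lowest was that of Ndufa9, at 3.59 ± 0.449 RPKM (SD, n = 4), with 3.10, 3.59, 4.19 and 3.50. The 2 high values of Ndufb5 were in PTC12 and TTF1. These lines also had the higher medians over all genes, 5.31 and 5.72 RPKM, against 3.73 in PTC11 and 3.72 in TTF4. The split is therefore not particular to Ndufb5. Ndufa9 was similar in all 4 lines. In complex III the highest mean was at Uqcrc1, one of the large core proteins on its matrix side, with 3.83, 7.79, 9.25 and 4.61 RPKM, and the lowest at the small subunit Uqcr11, with 4.48, 4.14, 4.95 and 3.87. In complex IV, Cox6c was highest with 5.10, 7.77, 8.58 and 4.28 RPKM. Cox5b, a zinc-binding subunit, was lowest with 3.10, 5.46, 3.92 and 3.41. PTC12 and TTF1 were the 2 highest lines at Ndufb5, Uqcrc1, Cox6c and Cox5b, while Uqcr11 was highest in TTF1 and PTC11.

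Many of these genes share a start region with a neighbour on the other strand. At 16 of the 52 genes, or 30.8%, all 4 H3K4me3 values were equal to those of another gene of the same chromosome, which is what 1 peak assigned to both genes gives, against 22.6% of 13568 genes with 4 values above 0. In each of the 16 the neighbour ran on the opposite strand. The 2 starts lay between 3 and 464 bp apart, with a median of 104 bp. Ndufs1 and the elongation factor gene Eef1b2 start 3 bp apart, Ndufa7 and the ribosomal protein gene Rps28 29 bp apart, Ndufb5 and the mitochondrial ribosomal protein gene Mrpl47 157 bp apart, and Ndufs3 and Kbtbd4 87 bp apart. The H3K4me3 of these 16 genes cannot be told apart from that of their neighbours.

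In 4 of the 5 isoform pairs of complex IV the tissue-restricted isoform lacked H3K4me3 in at least 2 lines, and Cox6b2 was the exception. For 3 of the 5 pairs the RefSeq promoter set used here holds both promoters, and these are shown because they differ in CpG number. The methylation values average CpGs within 1 kb of the TSS, a wider stretch than the sequences shown. The sequences are from RefSeq on build GRCm38.p6 (mm10) and cover 250 bases before to 50 bases after the annotated start, so each runs from the upstream region into the first exon. Capitals mark CpG dinucleotides. Cox6b1 is at chr7:30626065-30626364, minus strand, and Cox6b2 at chr7:4753045-4753344, minus strand. Cox7a2 is at chr9:79759804-79760103, minus strand, and Cox7a1 at chr7:30183921-30184220, plus strand. Cox8a is at chr19:7217567-7217866, minus strand, and Cox8b at chr7:140900397-140900696, minus strand.
Cox6b1: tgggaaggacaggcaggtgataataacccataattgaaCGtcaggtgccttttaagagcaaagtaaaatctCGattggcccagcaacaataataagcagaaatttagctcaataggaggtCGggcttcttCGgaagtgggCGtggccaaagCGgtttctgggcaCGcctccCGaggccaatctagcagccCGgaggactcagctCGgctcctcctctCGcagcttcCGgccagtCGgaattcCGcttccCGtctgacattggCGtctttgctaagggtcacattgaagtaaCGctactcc
Cox6b2: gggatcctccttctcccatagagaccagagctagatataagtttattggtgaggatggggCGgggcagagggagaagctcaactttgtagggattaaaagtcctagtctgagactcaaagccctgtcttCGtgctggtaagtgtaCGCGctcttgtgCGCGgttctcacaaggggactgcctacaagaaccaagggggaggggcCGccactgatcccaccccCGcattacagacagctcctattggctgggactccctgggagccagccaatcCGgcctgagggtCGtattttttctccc
Cox7a2: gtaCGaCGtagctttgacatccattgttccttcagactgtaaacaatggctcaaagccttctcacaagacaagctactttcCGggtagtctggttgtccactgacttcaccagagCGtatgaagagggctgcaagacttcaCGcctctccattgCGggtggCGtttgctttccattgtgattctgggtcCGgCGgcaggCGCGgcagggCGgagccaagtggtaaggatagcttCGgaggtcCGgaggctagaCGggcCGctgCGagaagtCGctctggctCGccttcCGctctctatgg
Cox7a1: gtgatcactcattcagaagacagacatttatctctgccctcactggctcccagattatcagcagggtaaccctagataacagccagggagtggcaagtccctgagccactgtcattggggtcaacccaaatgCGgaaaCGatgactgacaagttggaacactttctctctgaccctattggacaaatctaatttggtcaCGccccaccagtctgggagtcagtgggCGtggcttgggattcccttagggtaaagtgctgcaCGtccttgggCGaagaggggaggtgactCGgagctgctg
Cox8a: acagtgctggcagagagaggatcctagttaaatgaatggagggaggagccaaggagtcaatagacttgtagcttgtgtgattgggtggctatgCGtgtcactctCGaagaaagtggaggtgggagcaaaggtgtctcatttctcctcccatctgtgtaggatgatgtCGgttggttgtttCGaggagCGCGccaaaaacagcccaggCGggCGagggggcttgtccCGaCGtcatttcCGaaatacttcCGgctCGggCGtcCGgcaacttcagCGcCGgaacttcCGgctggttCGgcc
Cox8b: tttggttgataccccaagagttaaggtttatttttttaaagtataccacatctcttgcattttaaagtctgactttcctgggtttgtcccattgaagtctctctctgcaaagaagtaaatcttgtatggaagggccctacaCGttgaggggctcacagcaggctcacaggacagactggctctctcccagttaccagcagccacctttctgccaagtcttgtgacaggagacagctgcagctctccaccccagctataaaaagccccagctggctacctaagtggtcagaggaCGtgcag
The ubiquitous member of each pair has more CpGs in these 300 bases. Cox6b1 has 17 and Cox6b2 has 10, Cox7a2 has 20 and Cox7a1 has 7, and Cox8a has 19 and Cox8b has 2.

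Cox8a and Cox8b, which encode the smallest subunit of complex IV, differed in both measures. Cox8a had 4.96 RPKM of H3K4me3 in PTC11 and 4.54 in PTC12, and 5.87 in TTF1 and 3.36 in TTF4, while Cox8b had a value in PTC12 alone, 2.16 RPKM. The methylation of Cox8a was 0.0662 in PTC11 and 0.0104 in PTC12, and 0.0539 in TTF1 and 0.303 in TTF4, and that of Cox8b was 0.379, 0.667, 0.447 and 0.916 in the same order. Cox8b was higher in 4 of 4 lines, by 0.494 ± 0.167 (SD, n = 4 lines; exact sign-flip permutation test over the lines, two-sided, p = 0.125). That p is the smallest that 4 lines can give, so none of the pairs could pass 0.05.

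Cox6a2 had no H3K4me3 value in any line, whereas its ubiquitous partner Cox6a1 had 3.55 RPKM in PTC11 and 5.06 in PTC12, and 5.72 in TTF1 and 3.12 in TTF4. The methylation of Cox6a1 was 0.0207, 0.0353, 0.0428 and 0.197, and that of Cox6a2, a gene of 953 bp on chromosome 7 (128205435 to 128206387), was 0.670, 0.535, 0.322 and 0.525. Cox6a2 was higher in 4 of 4 lines, by 0.439 ± 0.169 (SD, n = 4; exact permutation p = 0.125). Unlike the other 4 tissue-restricted isoforms it was not highest in TTF4. Cox4i2, at position 152754173 to 152765037 of chromosome 2, had H3K4me3 in PTC12 (2.39 RPKM) and TTF1 (2.62 RPKM) only. Its partner Cox4i1 had 4.26, 5.98, 6.24 and 4.19 RPKM. The methylation of Cox4i2 was 0.318, 0.521, 0.555 and 0.818 against 0.0251, 0.00888, 0 and 0.139 at Cox4i1, a difference of 0.510 ± 0.161 in 4 of 4 lines (SD, n = 4; exact permutation p = 0.125).

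Cox7a1 held an intermediate place. It had H3K4me3 in PTC12 (3.42 RPKM) and TTF1 (3.31 RPKM) only, and Cox7a2 had 3.63, 5.44, 4.77 and 3.81 RPKM. The methylation of Cox7a1 was 0.04995 in PTC11 and 0.328 in PTC12, and 0.215 in TTF1 and 0.598 in TTF4, and that of Cox7a2 was 0.131, 0.151, 0.104 and 0.177. In PTC11 the restricted isoform was therefore the less methylated one, and the difference over the lines was 0.157 ± 0.208 (SD, n = 4; higher in 3 of 4 lines; exact permutation p = 0.25). PTC12 and TTF1, the lines with H3K4me3 at Cox4i2 and Cox7a1, are also those with a value at the most genes in all, 19990 and 19448 against 15114 in PTC11 and 15368 in TTF4. The part of peak calling in these missing values was not tested.

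Cox6b2, the testis isoform, was much like its ubiquitous partner in H3K4me3 and CpG methylation. In H3K36me3, Cox6b2 had a value in PTC11 alone and Cox6b1 in PTC11, PTC12 and TTF1. The H3K4me3 of Cox6b2 was 5.07 RPKM in PTC11 and 5.68 in PTC12, and 7.07 in TTF1 and 3.28 in TTF4, against 6.23, 3.93, 7.51 and 4.86 at Cox6b1. The difference, Cox6b2 minus Cox6b1, was -0.358 ± 1.48 RPKM (SD, n = 4; exact permutation p = 0.75), with Cox6b2 higher in PTC12 and lower in the other 3 lines. The methylation of Cox6b2 was 0.00735, 0.0732, 0 and 0.426 against 0.0167, 0.104, 0.0619 and 0.313 at Cox6b1. The 2 genes differed by 0.00294 ± 0.0768 (SD, n = 4; exact permutation p = 1), less than the spread between lines. Cox6b2 is thus the 1 tissue-restricted isoform of the 5 with H3K4me3 in every line and with methylation under 0.2 in PTC11, PTC12 and TTF1. Over the 5 pairs together the restricted isoform exceeded its partner in methylation by a mean of 0.233 in PTC11 and 0.363 in PTC12, and 0.255 in TTF1 and 0.431 in TTF4, or 0.321 ± 0.0930 (SD, n = 4; exact permutation p = 0.125).

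**Figure D2:**
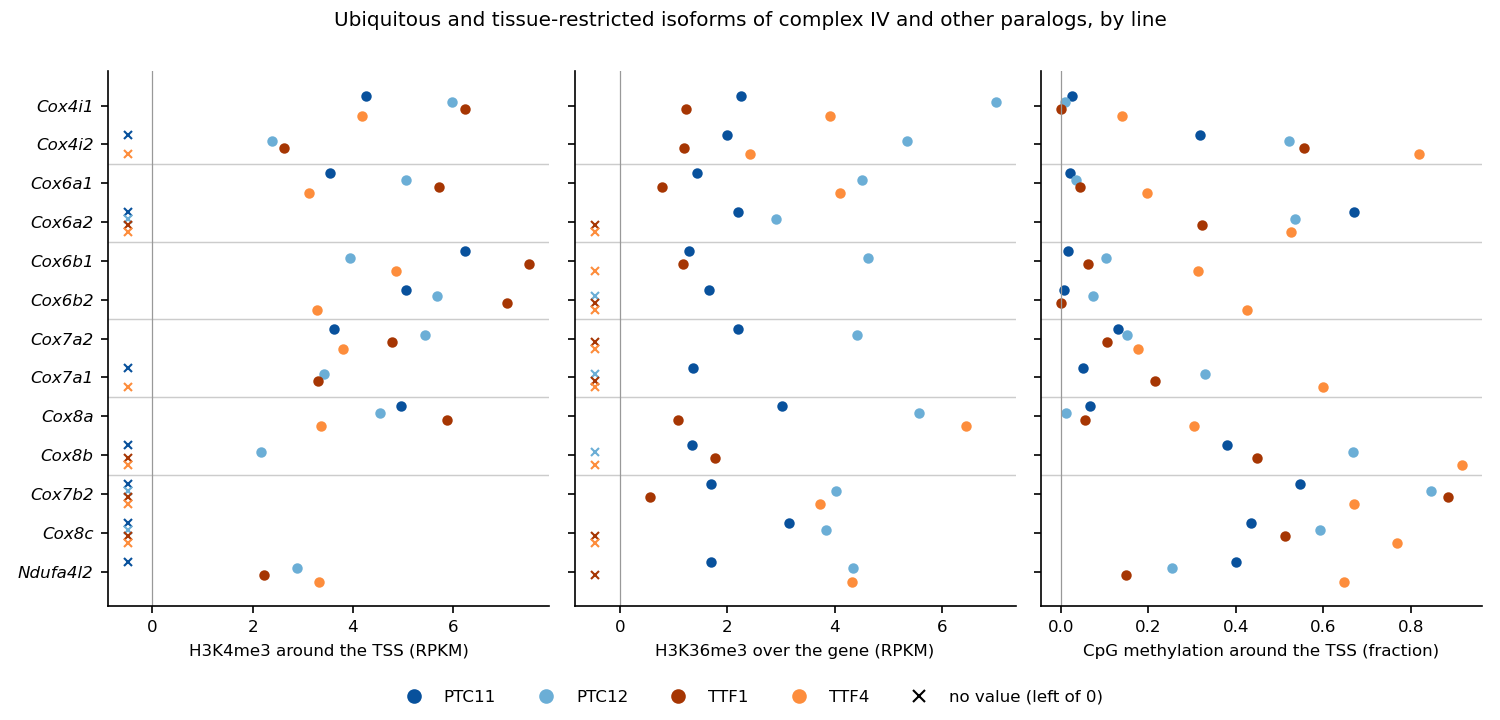
H3K4me3 (RPKM), H3K36me3 (RPKM) and CpG methylation (fraction) of the 5 isoform pairs, the ubiquitous member above the tissue-restricted one, and of the 3 other paralogs. Each point is 1 line, coloured by line, and a cross left of 0 is a line without a value. Cox6b2 is the restricted isoform with 4 H3K4me3 points, and Cox4i2, Cox6a2 and Cox8b lie to the right of their partners in methylation in every line.

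Of the 3 other paralogs, Cox7b2 and Cox8c had, like Cox6a2, no H3K4me3 value in any line. The methylation of Cox7b2 was 0.547 in PTC11 and 0.846 in PTC12, and 0.885 in TTF1 and 0.670 in TTF4, and that of Cox8c was 0.433, 0.592, 0.513 and 0.768. Ndufa4l2, a paralog of Ndufa4 known as a gene induced by low oxygen, had H3K4me3 in 3 lines, at 2.88 RPKM in PTC12, 2.23 in TTF1 and 3.32 in TTF4. Its methylation was 0.399, 0.254, 0.150 and 0.647, lowest in TTF1. With the 4 muscle and lung isoforms, these make 7 genes of the 59 that lacked H3K4me3 in at least 1 line.

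CpG methylation was lower in median at the ubiquitous subunits than at the other classes in every line. The median of the 51 ubiquitous subunits was 0.0817 in PTC11 and 0.0889 in PTC12, and 0.0672 in TTF1 and 0.245 in TTF4, against medians over all genes of 0.380, 0.535, 0.370 and 0.769. The median of the 5 tissue-restricted isoforms was 0.318, 0.521, 0.322 and 0.598, and that of the 8 copies was 0.383, 0.577, 0.566 and 0.851. A fraction under 0.2 in every line was found at 17 of the 67 genes, or 25.4%, against 12.4% of all genes, and all 17 were ubiquitous subunits. TTF4 set that count, since 38 of the 51 ubiquitous subunits were under 0.2 in the other 3 lines. The share of all genes under 0.2 in those 3 lines was not counted. TTF4 was the highest line at 55 of the 67 genes, or 82.1%, close to the 75.4% of all genes. Even there, 50 of the 51 ubiquitous subunits lay under the mean of TTF4 over all genes, 0.649. That mean is below the median of TTF4 over all genes, 0.769, and the share of all genes under it was not counted.

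The least methylated gene of complex I was the core subunit Ndufs1, at 0.0239 in PTC11 and 0.0303 in PTC12, and 0.00521 in TTF1 and 0.0399 in TTF4. In complex III it was Uqcrh, the hinge protein that binds cytochrome c1, at 0.0421, 0.00653, 0.00470 and 0.0482, and in complex IV Cox6a1. Ndufs1 and Uqcrh stayed low in TTF4 too, unlike Cox6a1, which rose to 0.197 there. Of the other core subunits of complex I, Ndufv2 had 0.0544, 0.0614, 0.0148 and 0.127 and Ndufs7 had 0.0677, 0.0610, 0.0954 and 0.308. Ndufs8 had 0.194, 0.0463, 0.120 and 0.212, Ndufv1 had 0.116, 0.168, 0.0122 and 0.310, and Ndufs3 had 0.189, 0.109, 0.123 and 0.309. Each of these core subunits was highest in TTF4.

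Genes with a fraction over 0.2 in every line numbered 13 of 67, or 19.4%, against 60.4% of all genes. They were the isoforms Cox4i2, Cox6a2 and Cox8b, the paralogs Cox7b2 and Cox8c, 7 copies and 1 ubiquitous gene, Cox7a2l. The 7 copies were Cox6c2, Ndufa11b, Ndufb4c, Ndufs5-ps, Ndufs6b, Uqcrh-ps1 and Uqcrh-ps2. The highest means were those of copies in each complex: Ndufb4c at 0.711 ± 0.0141 (SD, n = 4 lines), Uqcrh-ps2 at 0.587 ± 0.183 and Cox6c2 at 0.783 ± 0.112. Ndufb4c was also nearly level across the lines, at 0.731 in PTC11 and 0.697 in PTC12, and 0.710 in TTF1 and 0.706 in TTF4. Copies resemble their parent genes in sequence, and how reads were divided between them was not analysed here.

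Cox7a2l, which encodes a protein that links complexes III and IV into a supercomplex, had 0.533 in PTC11 and 0.701 in PTC12, and 0.574 in TTF1 and 0.924 in TTF4, although its H3K4me3 was 4.69, 7.61, 5.13 and 4.35 RPKM. The 2 measures were taken at different starts. In the methylation table its TSS lies 2997 bp from the TSS of the histone table, whereas 39 of the 59 genes that both hold had the same start. The methylation of the promoter under the H3K4me3 of Cox7a2l is therefore not given by the table.

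The promoters of the ubiquitous subunits were rich in CpG. RefSeq promoters were found for 47 of the 67 genes, among them 43 ubiquitous subunits. The median was 18 CpGs per 300 bases in the 47 promoters and 7 in the promoters of all 27025 genes, and the ratio of observed to expected CpGs was 0.795 against 0.389. Ubiquitous subunits had from 8 CpGs (Ndufc2) to 39 (Ndufv2). Across the 46 genes with a promoter within 1 kb of the TSS used for methylation, CpG number and mean methylation had a Pearson r of -0.468 and a Spearman rho of -0.350. Across the 42 ubiquitous ones these were -0.288 and -0.214, closer to 0 than with the 4 other genes. The points share the same 4 libraries, and genes are not independent replicates.

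**Figure D3:**
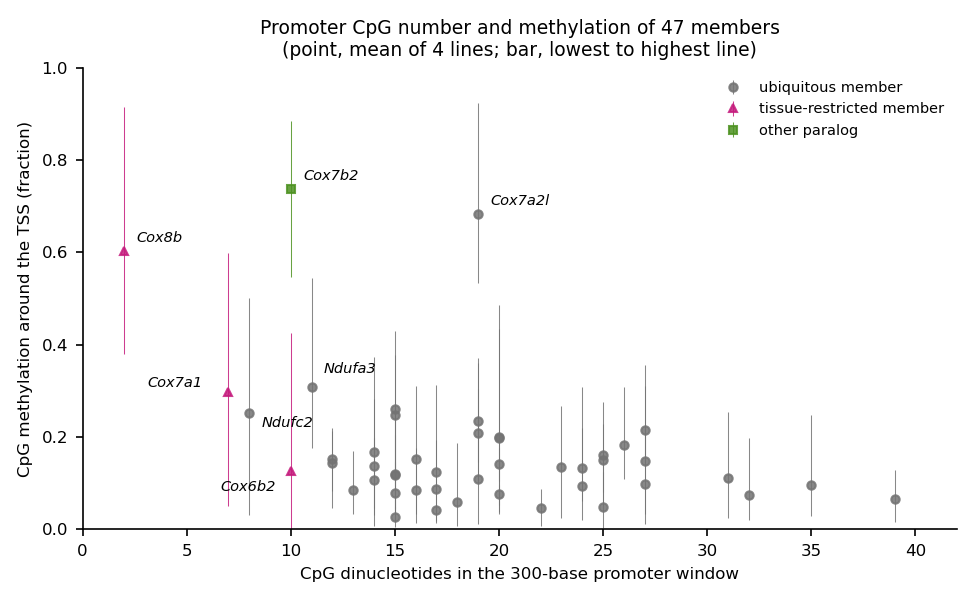
Mean CpG methylation over the 4 lines (vertical axis, fraction) against the number of CpGs in the 300-base promoter window (horizontal axis) for the 47 genes with a RefSeq promoter, with bars from the lowest to the highest line. Cox8b, with 2 CpGs, and Cox7b2, with 10, lie high, Cox6b2, also with 10, lies among the ubiquitous subunits, and the methylation of Cox7a2l was taken at another start.

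Motifs of factors known for driving nuclear respiratory genes were counted on both strands of the same windows. The NRF1 motif GCGCANGCG was present in 11 of the 47 promoters, or 23.4%, and in 6.47% of all promoters. The ETS motif CCGGAAGT, bound by GABPA (also called NRF2) among others, was in 4, or 8.51%, against 4.0% of all. The YY1 motif ATGGCGGC was in 6, or 12.8%, against 2.38%. At least 1 of the 3 occurred in 19 promoters, or 40.4%, against 11.6%, and 2 promoters held 2 of them. All 19 belong to ubiquitous subunits, which make up 43 of the 47 promoters, so the other classes are too few to compare. In the pairs shown above only Cox8a held a motif, the ETS letters read on the opposite strand as ACTTCCGG, which start at position -6 and again at position 32 from the annotated start. Each of the 3 motifs contains CpG, and these promoters have more CpGs, with a median of 18 against 7 in all promoters. The share among promoters of like CpG number was not counted, so the part of CpG content in these shares was not tested. A match is a description of letters, and binding was not measured.

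H3K36me3 covered fewer of these genes. A value in all 4 lines was found at 26 of 59, or 44.1%, against 38.7% of all genes. PTC11 had a value at 58 of the 59, PTC12 at 47, TTF1 at 44 and TTF4 at 29. The TTF1 value of Ndufa6 was 0. The 26 genes with 4 values had a median length of 11029 bp, the 15 with 3 values 6487 bp, the 12 with 2 values 4224 bp and the 5 with 1 value 2791 bp, while over all genes those with 4 values had a median of 27141 bp. Only Ndufb3, of 9581 bp, had no value in any line. The part of gene length in the missing values was not tested. Among the 26 genes, 17 were highest in PTC12 and 9 in TTF4, which were the highest lines at 49.6% and 48.4% of all genes, and 23 were lowest in TTF1, which was also the lowest line at 84.6% of all genes.

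H3K36me3 was found at tissue-restricted isoforms as well. Cox4i2, with 1.99 RPKM in PTC11 and 5.36 in PTC12, and 1.18 in TTF1 and 2.42 in TTF4, had a value in every line, and Cox4i1 had 2.24, 7.00, 1.23 and 3.91. Cox4i1 was the higher of the 2 in 4 of 4 lines, and Cox4i2 minus Cox4i1 was -0.861 ± 0.826 RPKM (SD, n = 4; exact permutation p = 0.125). Cox7b2, which had no H3K4me3, had H3K36me3 of 1.69, 4.03, 0.551 and 3.73 RPKM. Values were partly missing at the other restricted isoforms: Cox6a2 had 2.19 RPKM in PTC11 and 2.91 in PTC12, Cox8b had 1.33 in PTC11 and 1.77 in TTF1, and Cox6b2 and Cox7a1 had 1.65 and 1.35 in PTC11. The ubiquitous partners Cox6a1 and Cox8a had 4 values, Cox6b1 had 3 and Cox7a2 had 2, so a missing value was not particular to the restricted isoforms.

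Of the subunits with 4 H3K36me3 values, Ndufc2 was highest in complex I with 2.15 RPKM in PTC11 and 8.49 in PTC12, and 1.88 in TTF1 and 7.28 in TTF4, and Ndufb8 lowest with 1.95, 2.88, 1.02 and 2.16. In complex III, Uqcrq was highest with 1.93, 8.88, 2.26 and 5.64 RPKM and Uqcrc1 lowest with 1.80, 3.71, 1.51 and 4.56. In complex IV, Cox8a was highest with 3.02, 5.57, 1.07 and 6.44 RPKM and Cox7a2l lowest with 1.31, 4.58, 1.11 and 2.67. At each of these 6 genes PTC12 and TTF4 exceeded TTF1. Of the core subunits of complex I, Ndufs1, Ndufs7 and Ndufv2 had 4 values, with 2.03, 3.84, 1.87 and 3.49 RPKM at Ndufs1.

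The question of the study, whether iPSCs keep marks of the cell they came from, was put to these genes by comparing TTF with PTC lines. No respiratory chain gene passed limma's test across all genes at a Benjamini-Hochberg adjusted p under 0.05: 0 of 52 for H3K4me3, 0 of 26 for H3K36me3 and 0 of 67 for CpG methylation, and in each assay also 0 at an unadjusted p under 0.05. Over all genes, limma called 0.481% for H3K4me3, 0.112% for H3K36me3 and 0.00395% for methylation. Shares of that size leave little room for a call among so few genes. The median difference of TTF minus PTC over the chain genes was 0.04 on the log2(RPKM + 1) scale for H3K4me3 (all genes 0.04), -0.27 for H3K36me3 (all genes -0.14) and -0.0155 for the methylation fraction after subtraction of the mean of each line (all genes -0.0100). For H3K4me3 30 genes were higher in TTF and 22 lower, where 60.8% of all genes were higher. For H3K36me3 5 were higher and 21 lower, where 25.3% of all genes were higher, and for methylation 30 and 37, where 47.0% were.

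Genes whose TTF lines both lay on one side of both PTC lines were about as frequent as in the whole tables. For H3K4me3 both TTF lines lay above at 3 of 52 genes, or 5.77% (all genes 5.04%), and below at 2, or 3.85% (all genes 3.17%). For H3K36me3 this was 0 of 26 above (all genes 0.452%) and 1 of 26, or 3.85%, below (all genes 3.05%). For centred methylation it was 9 of 67, or 13.4%, above (all genes 15.0%) and 8, or 11.9%, below (all genes 12.8%).

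None of the largest separated differences passed the test. For H3K4me3 the largest rise was at Ndufb10, an accessory subunit of complex I, with 4.17 RPKM in PTC11 and 3.34 in PTC12, and 6.71 in TTF1 and 4.98 in TTF4. TTF minus PTC was 0.52 ± 0.45 on the log2 scale (SE; limma adjusted p = 1; exact permutation p = 0.333, the smallest that 2 lines against 2 can give). The largest fall was at Cox7c, with 4.29, 6.77, 3.85 and 3.09 RPKM and a difference of -0.53 ± 0.42 (SE; limma adjusted p = 1). For H3K36me3 the 1 separated gene was Ndufb4, with 2.56, 3.30, 1.44 and 2.44 RPKM and a difference of -0.43 ± 0.98 (SE; limma adjusted p = 1). Ndufb4 narrowly separated the origins, since PTC11 and TTF4 lay close together. For methylation both extremes were tissue-restricted isoforms, Cox4i2 with a difference of 0.180 ± 0.157 (SE; limma adjusted p = 1) and Cox6a2 with -0.266 ± 0.157 (SE; limma adjusted p = 1). Their directions were opposite.

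**Figure D4:**
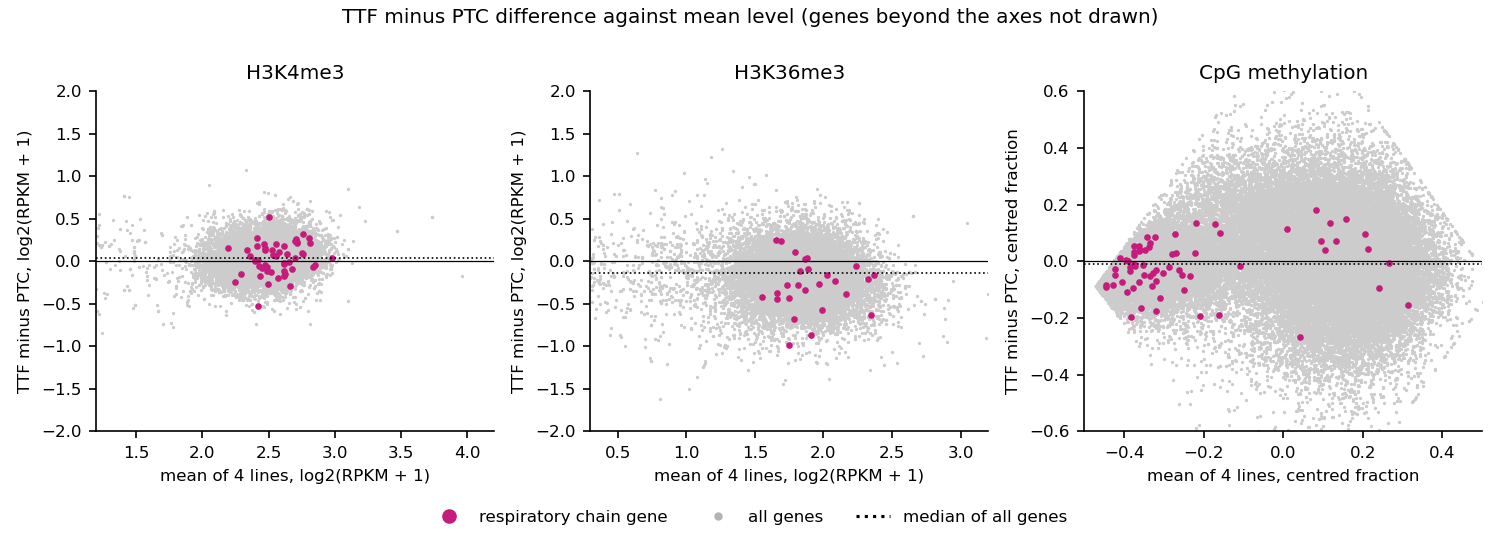
TTF minus PTC difference (vertical axis) against the mean of the 4 lines (horizontal axis) for H3K4me3 and H3K36me3 on the log2(RPKM + 1) scale and for CpG methylation as a centred fraction. Grey points are all genes, pink points the respiratory chain genes, and the dotted line the median of all genes. The chain genes lie within the cloud of all genes, from -0.53 to 0.52 for H3K4me3, from -0.98 to 0.26 for H3K36me3 and from -0.266 to 0.180 for methylation. The difference of -0.98 is that of Ndufa6, whose H3K36me3 value in TTF1 was 0.

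The other genes of oxidative phosphorylation were read from a list of 67: complex II, cytochrome c, ATP synthase, assembly factors, regulators, and the subunits Cyc1, Ndufab1 and Cox4i1 whose names fall outside the rule. Of the 61 in the histone table, 58 had H3K4me3 in all 4 lines. The 3 without were Cyct, the testis form of cytochrome c, the ATP synthase gene Atp5g2 and Ppargc1a, a coactivator of mitochondrial biogenesis. All 4 complex II genes had it. Cyct had no value in TTF4 and 3.32 RPKM in PTC11, with 3.10 in PTC12 and 3.29 in TTF1, and methylation of 0.565, 0.514, 0.731 and 0.883, whereas somatic Cycs had 2.82, 3.58, 2.99 and 2.77 RPKM and methylation of 0.0988, 0.121, 0.0338 and 0.277. Ppargc1a had no H3K4me3 in any line and methylation of 0.517, 0.693, 0.832 and 0.946, but H3K36me3 in every line, at 1.97, 3.45, 1.14 and 3.86 RPKM. The gene for NRF1 had 4.39, 5.58, 8.07 and 4.12 RPKM of H3K4me3 and methylation of 0.00882, 0.0147, 0.00797 and 0. Cyct, Cycs, Ppargc1a and Nrf1 were chosen for mention after their values were seen. In limma's test none of the list passed in either direction, 0 of 58 for H3K4me3, 0 of 40 for H3K36me3 and 0 of 67 entries for methylation, where Atp5o has 2 entries and Atp5f1 none.

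H3K27me3, a mark of repressed genes, had no value at any of the 59 genes in any of the 4 libraries. Those libraries have values at few genes, from 11 in the TTF4 library to 144 in a PTC library, so the absence of a value is no measure of the mark at the tissue-restricted isoforms. Both PTC libraries carry the label of line 11.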

How the data were processed

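CpG methylation, H3K4me3, H3K36me3 and H3K27me3 were measured in 16 libraries, with origin and line taken from the sample labels. The authors aligned ChIP-seq reads to mm10 with Bowtie2 (version 2.1.0 in the submitters' notes), called peaks in each library against input with MACS2 (2.0.10), counted reads with bedtools (2.17.0), and deposited per gene the RPKM minus that of the input, averaged over the peaks from 2 kb before to 3 kb after the TSS or over the gene body. The paper states that peaks at or below 0 were excluded, yet the deposited values include some of 0, such as the H3K36me3 of Ndufa6 in TTF1. Which genes have a value depends on peak calling in each library. For nanopore reads the authors called methylation with Nanopolish after alignment with minimap2 (2.17-r941) and deposited the fraction of methylated CpGs, averaged over windows of 300 bp in steps of 30 bp. It is not centred between samples. Depth is unknown.

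Only genes measured in all 4 lines were tested, with limma 3.58.1 (R 4.3.3; lmFit, eBayes with a trend) on log2(RPKM + 1), which understates changes of low values, or on the fraction minus the mean of the line, with Benjamini-Hochberg adjustment over all genes. The test was checked on simulated data with planted changes larger than the separated differences reported here. That check does not show how well the test finds differences of the size seen here. Isoform pairs were compared with an exact two-sided sign-flip permutation test over the lines (scipy 1.17.1). Members and lists were chosen with earlier results of these data known. Genes named were the isoforms and paralogs, the core subunits of complex I, the highest and lowest gene of each complex, the largest separated rise and fall, and genes without H3K4me3 in a line or with methylation over 0.2 in every line. Alternatives varied the pseudocount, filter, missing values, normalization, centring, variance trend and threshold, and left out each line. RefSeq promoters for Ndufb4c, Cox4i2, Ndufa4l2, Ndufa2, Ndufs6b, Cox6a2, Ndufs1, Uqcrb, Cox6c, Ndufs5-ps, Ndufb1-ps, Uqcrq, Cox6c2, Uqcrc2, Cox8c, Uqcrh-ps1, Uqcrh-ps2, Ndufb9 and Ndufa11b were not used here. An item withheld from the text is not reported here.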

Additional observations from a re-analysis of the deposited data

How the results depend on the processing

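No paired analysis was possible because the PTC lines are numbered 11 and 12 and the TTF lines 1 and 4, and the labels pair no lines. No respiratory chain gene was called in any assay under any alternative run. Over all genes the number called for H3K4me3 was 66, and it was 102 with a pseudocount of 0.1 and 0 with a mean of at least 1 RPKM, with missing lines set to 0, after quantile normalization and without the variance trend. For H3K36me3 it was 19, and 44 with the pseudocount of 0.1 and 0 under the same other 4 settings. For methylation it was 2, and 0 without centring, 0 after quantile normalization, 9 on chromosomes 1 to 19 and 1 without the trend. Leaving out 1 line in turn gave from 59 to 108 genes for H3K4me3 (108 without TTF1), from 1 to 31 for H3K36me3 (31 without PTC11, 8 without TTF1 and 1 without TTF4) and from 0 to 1020 for methylation (1020 without TTF1, 227 without TTF4, 5 without PTC11 and 0 without PTC12). In these fits the lone line is assumed to vary like the other origin.

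The median difference over the chain genes has no stable direction. It ran from -0.22 to 0.28 for H3K4me3, from -0.88 to 0.37 for H3K36me3 and from -0.0668 to 0.0385 for methylation as lines were left out, each extreme without TTF1 or TTF4. Quantile normalization gave -0.04, -0.11 and 0.0194, and fractions without centring gave 0.0716. With missing lines set to 0 the median for H3K36me3 was -0.62 over 58 genes (all genes -0.22). The mean excess of the restricted isoforms over their partners in methylation stayed between 0.284 and 0.350 as lines were left out. The number of genes with methylation under 0.2 in every line was 17, and 5 with a threshold of 0.1, 28 after quantile normalization, and from 17 to 40 as lines were left out, with 40 without TTF4. None of the 5 genes named for TTF against PTC had an adjusted p under 0.05 in any alternative. Their choice fixes their direction as lines are left out, and their size moved, from -0.143 (without PTC11) to -0.389 (without PTC12) at Cox6a2, from 0.134 (without PTC11) to 0.226 (without PTC12) at Cox4i2, from -0.19 (without TTF1) to -0.68 (without TTF4) at Ndufb4, from -0.25 (without PTC12) to -0.80 (without PTC11) at Cox7c and from 0.34 (without TTF1) to 0.70 (without TTF4) at Ndufb10. With 1 library per line and no counts, counting error could not be separated from differences between lines.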
